A study of Mus musculus with 8 samples.

Results

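Clathrin heavy and light chains and subunits of the AP-1, AP-2 and AP-3 adaptor complexes were followed in glomerular mesangial cells (MMC), the contractile support cells of the glomerular tuft, with and without miR-379. The genes were chosen by symbol and made up 10 of the 24639 gene entries counted in each sample. They were Clta, Cltb, Cltc, Ap3s1, Ap3s2, Ap3b1, Ap3d1, Ap3m1, Ap1s3 and Ap2m1, and all 10 passed the filter on low counts in each comparison. The study named Clta and Ap3s1 as candidate targets of miR-379 because AGO2-IP reads at their predicted sites were fewer in miR-379KO MMC. It measured those reads relative to the rest of the 3′-UTR. The AGO2-IP values of these genes are therefore not independent of that choice. By qPCR of AGO2-IP RNA the study also reported a significant decrease of both genes in miR-379KO MMC. Counts of whole genes, as used below, do not measure enrichment at a site. The question was whether Clta and Ap3s1 differed between genotypes and whether they did so apart from the subunits they assemble with.

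WT MMC came from C57BL/6J mice, and miR-379KO MMC came from mice of the same strain that were homozygous for a short deletion at miR-379, made with CRISPR-Cas9 nickase and bred from founder animals. All cells were untreated primary cultures in RPMI medium with foetal bovine serum. Total RNA was sequenced from each culture type, and RNA bound to AGO2, the Argonaute protein in which a microRNA meets its targets, was recovered with anti-AGO2 beads after UV cross-linking (AGO2-IP). The 8 libraries formed 4 groups of 2 replicates, A and B. The study calls the AGO2-IP samples A and B independent, but neither it nor the labels say whether they came from separate mice or cultures. The p-values then measure only the spread between these samples, which may be technical.

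Total RNA libraries held 17168230 to 22660743 gene counts. AGO2-IP libraries held 17095021 and 9586299 in WT, against 6545652 and 5587611 in miR-379KO. Without the ribosomal precursor Rn45s and the tRNA ligase gene Lars2, they held 1875037 and 1605632 in WT, against 1308149 and 1115782 in miR-379KO. These totals set the precision of the values below. Replicates of each group differed by more than sampling noise. The entry for miR-379 itself had 0 counts in each total RNA library, 0 and 4 in the WT AGO2-IP replicates and 1 and 0 in those of miR-379KO, too few to check the genotype from these counts. The study reported by qPCR that miR-379 was reduced in miR-379KO glomeruli and in AGO2-IP of miR-379KO MMC. Of 8 mesangial markers, the contractile gene Acta2 (6890 to 10700 CPM, counts scaled to a common library total, in total RNA) and the filament gene Vim (5290 to 7330) were high, Pdgfrb and Des were present, and Itga8 (0.383 to 2.27) and Thy1 (0 to 0.13) were near 0. Of podocyte markers, Synpo (195 to 516 CPM) was well above the summed tubule, endothelial and leukocyte lists in total RNA. Wt1 (28.8 to 93.4) was above the endothelial and leukocyte lists, but its range overlapped that of the tubule list. Podxl was at 16.5 to 25 and Nphs1 at 0 to 0.239. In both genotypes Synpo and Wt1 were higher in replicate A than in B. In AGO2-IP the summed CPM of tubule markers was 8.82 to 9.25 in WT and 22.9 to 31.4 in miR-379KO, of endothelial markers 2.31 to 4.12 and 6.69 to 8.18, and of leukocyte markers 4.74 to 5.1 and 10.9 to 14.8. In total RNA these lists summed to 8.41 to 31.4 CPM (tubule, through Lrp2 and Cubn), 0.0587 to 2.09 (endothelial) and 1.85 to 4.21 (leukocyte). Among genes tested, those low in total RNA were often higher in miR-379KO AGO2-IP. Of 2542 genes tested with under 10 mean total RNA counts, 2036 were called higher (edgeR adjusted p-value under 0.05). Their median log2 fold change was 1.80. The filter used the AGO2-IP counts, so such a gene could enter through the genotype where it was higher. These genes are therefore not an unselected background. The part of the marker genes in the results below was not tested. Nor can fewer cells of a type be told apart from less RNA per cell in such bulk samples.

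Clathrin coats form when heavy chains (Cltc), each carrying a light chain (Clta or Cltb), assemble into a lattice on a membrane. Adaptor complexes join this lattice or other partners to cargo, and each is built of a pair of large subunits, a medium (mu) and a small (sigma) subunit. AP-2 works in endocytosis at the plasma membrane, AP-1 between the trans-Golgi network and endosomes, and AP-3 in transport to lysosomes and related organelles. On GRCm38 the clathrin genes lie at chr4:44003816-44032846 (Clta), chr13:54592386-54611373 (Cltb) and chr11:86694352-86757567 (Cltc). Those of the AP-1 and AP-2 subunits lie at chr1:79606869-79672018 (Ap1s3) and chr16:20535480-20544909 (Ap2m1), and those of the AP-3 subunits other than Ap3s1 at chr7:79875325-79920640 (Ap3s2), chr13:94358960-94566316 (Ap3b1), chr10:80706956-80742303 (Ap3d1) and chr14:21033106-21052553 (Ap3m1). All 10 genes are protein-coding. A microRNA bound to AGO2 finds targets mainly by pairing of its seed, bases 2 to 8, with sites that often lie in the 3′-UTR.

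The members were first searched for the seed match, because such a match is the usual mark of a target of a microRNA. The mature miR-379-5p, from RefSeq on GRCm38.p6 at chr12:109709065-109709085, plus strand, is shown with its seed in capitals, and is followed by the best match in the 3′-UTR of the clathrin and AP-2 members that had one, with the matching bases in capitals.
mmu-miR-379-5p: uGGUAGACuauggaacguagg
Clta, chr4:44032589-44032610, plus strand: aacactacGTCTACaatatctt
Cltc, chr11:86695506-86695527, minus strand: aagcatccTCTACCcacttctc
Ap2m1, chr16:20543719-20543740, plus strand: ctcttctcTCTACCcctgtggc
The full 7-base match GTCTACC was in 794 of 19985 annotated 3′-UTRs (3.97%) and in none of the 10 members, searched on the transcript strand. The 6-base match to bases 2 to 7, TCTACC, lies within GTCTACC and was in 20.7% of 3′-UTRs. It occurred once each in Cltc, Ap3m1, Ap1s3 and Ap2m1. The offset match to bases 3 to 8, GTCTAC, also lies within GTCTACC and was in 16.7%. It occurred once each in Clta, Ap3s2, Ap3d1 and Ap1s3. Ap3s1, Cltb and Ap3b1 had none of these matches. For miR-379-3p, the other arm of the same hairpin, the match to bases 2 to 8 was in none of the members (6.79% of 3′-UTRs). Its match to bases 2 to 7, TTACAT, was in 27.8% of 3′-UTRs, and occurred once each in Cltc and Ap3b1, 2 times in Ap3s2 and 4 times in Ap1s3. Clta has a short 3′-UTR of 274 bases, and 4.17% of 3′-UTRs of like length (0.8 to 1.25 times its own) held GTCTAC.

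Pairing along the whole microRNA was described with RNAduplex, which finds the most stable duplex and does not require a seed. The energy was −12.60 kcal/mol for Clta, and 74.9% of 3′-UTRs of like length had one as low. For Ap3s1 it was −17.20 kcal/mol, with 29.5% as low. The lowest value was that of Ap3s2, the other AP-3 small subunit, at −22 kcal/mol in a 3′-UTR of 5159 bases, with 4.23% as low. The duplex of Clta spans the offset match shown above. It is printed with the paired bases in capitals, next to that of Ap3s2.
Clta, chr4:44032580-44032603, plus strand: cCCTGTGgaaaCAcTAcGTCTACa
Ap3s2, chr7:79876985-79877008, minus strand: cCCTgATGTTTCGTccTCTGCCAg
The Ap3s2 duplex holds none of the motifs above. A match or a duplex here is a description of these letters and not evidence of a bound site.

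In total RNA the members covered a wide range of levels. Compared per kilobase of exon, the AP-2 medium subunit Ap2m1 was highest at a mean of 190 CPM per kb over the 4 libraries, above 97.7% of 12275 genes with at least 10 mean counts. It was followed by the heavy chain Cltc (109), the light chain Clta (88.6), Ap3s1 (46.7), the AP-3 delta subunit Ap3d1 (40.8), the light chain Cltb (38.2), the AP-3 beta subunit Ap3b1 (32.1), the AP-3 medium subunit Ap3m1 (13.7) and Ap3s2 (7.11). The AP-1 small subunit Ap1s3 was lowest at 0.814 CPM per kb, above 11.4% of genes. The first 4 kept this order in each library: Clta spanned 65 to 99.3 CPM per kb, below Cltc (105 to 116) and above Ap3s1 (34.7 to 61.1). Ap3s1, Ap3d1 and Cltb could not be ordered, since their ranges overlapped, and that of Cltb (29.6 to 44.8) also overlapped that of Ap3b1 (29.7 to 34).

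**Figure D1:**
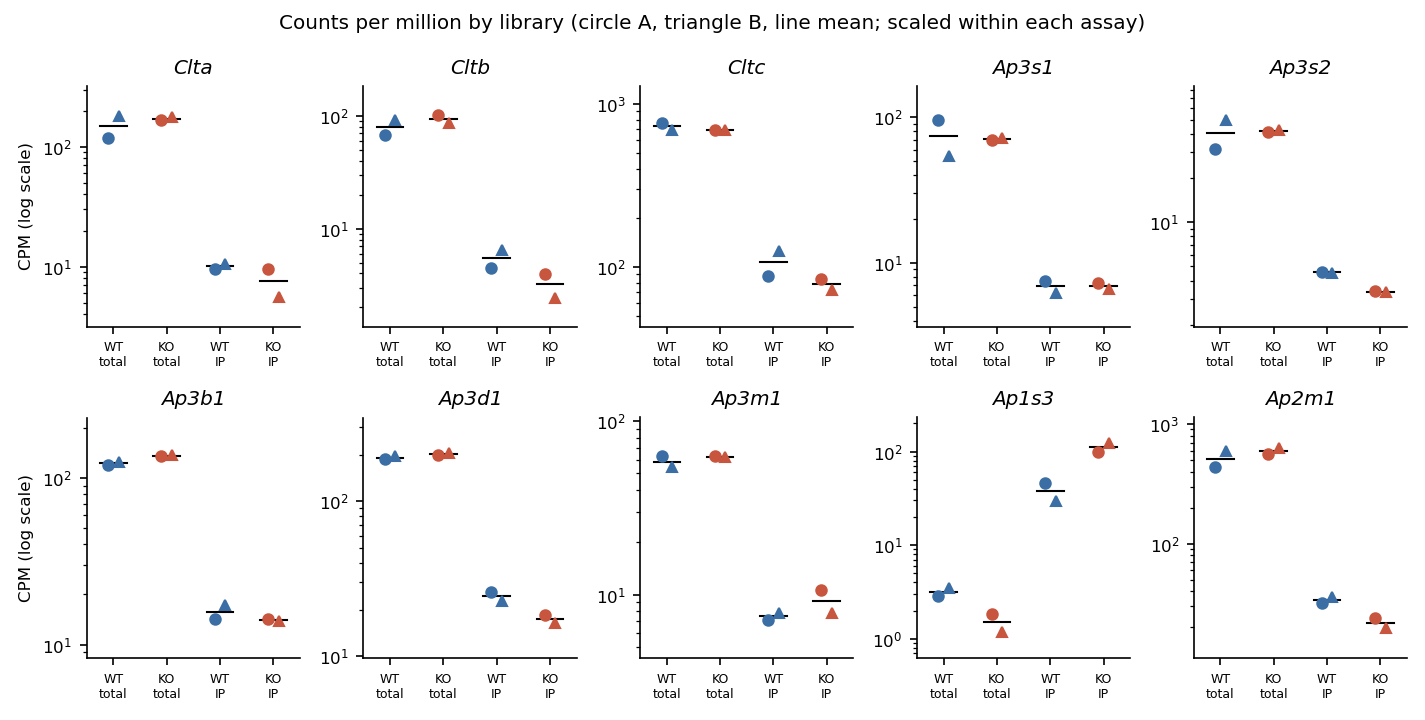
CPM (log axis) of each gene in the 8 libraries, with a circle for replicate A, a triangle for replicate B and a line at the mean of the group; CPM were scaled within each assay and are not comparable between assays. In total RNA the genotypes lie close together except for Ap1s3, while in AGO2-IP Ap2m1 is lower and Ap1s3 higher in both miR-379KO libraries than in both WT libraries.

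Total RNA of the members was compared first, because repression by a microRNA can lower the level of its targets. Clta was at 118 and 180 CPM in the WT replicates A and B, against 166 and 178 in those of miR-379KO. The WT replicates lay on either side of both miR-379KO values. The log2 fold change of Clta was 0.21 ± 0.26 (SE), with a 95% interval from −0.43 to 0.85. Ap3s1 was at 95.4 and 54.2 CPM in WT, against 69.8 and 72 in miR-379KO, again with the WT values on either side (log2 fold change −0.08 ± 0.30, interval −0.81 to 0.66). The direction for Ap3s1 rested on WT A, without which the change was 0.39, and that for Clta on the same library, without which it was −0.06. Neither gene passed the test (edgeR adjusted p-value 1 for both).

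None of the partner subunits passed in total RNA either. The second clathrin light chain, Cltb, was at 67.5 and 91.8 CPM in WT, against 102 and 87.2 in miR-379KO (log2 fold change 0.25 ± 0.24). The heavy chain Cltc, which all clathrin coats need, was at 762 and 695 CPM in WT, against 695 and 688 in miR-379KO (−0.07 ± 0.24). Changes of the other 4 AP-3 subunits were between 0.05 for Ap3s2 and 0.15 for Ap3b1, and that of Ap2m1 was 0.22 ± 0.27. Ap1s3 stood apart in size, with 48 and 64 counts in WT, against 42 and 20 in miR-379KO. These correspond to 2.86 and 3.5 CPM against 1.83 and 1.17, so both miR-379KO values were below both WT values (log2 fold change −1.07 ± 0.45, unadjusted edgeR p-value 0.0526). Of the 10 members 0 passed the adjusted threshold in edgeR or DESeq2, and 0 had an unadjusted p-value under 0.05. The background was 0% of 12321 genes called (91 had an unadjusted p-value under 0.05), and 0.682% met the fold change of 1.5 with an unadjusted p-value under 0.05 that the study's methods use. The CPM ranges of the genotypes did not overlap for 3 members, Ap3b1, Ap3d1 and Ap1s3, against 19% of all genes.

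AGO2-IP was compared next, since a target of miR-379 could lose recovery with AGO2 when the microRNA is absent. For Clta, 98 and 91 counts were recovered in the WT replicates A and B, against 82 and 44 in those of miR-379KO. Scaled, these were 9.61 and 10.5 CPM in WT, against 9.62 and 5.62 in miR-379KO, so that miR-379KO A lay within the WT range and only B lay below it. The log2 fold change was −0.39 ± 0.26, with an interval from −0.93 to 0.14 (edgeR adjusted p-value 0.255). Without miR-379KO A it was −0.91 and passed (adjusted p-value 0.0492), and without miR-379KO B it was −0.08. Over the 13 alternative settings the adjusted p-value ranged from 0.0492 to 0.959.

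For Ap3s1, 77 and 54 counts were recovered in WT, against 62 and 52 in miR-379KO AGO2-IP. The CPM were 7.55 and 6.24 in WT, against 7.27 and 6.64 in miR-379KO, with both miR-379KO values between the WT values. The log2 fold change was 0.01 ± 0.25, with an interval from −0.51 to 0.53 (edgeR adjusted p-value 0.981), and over the alternatives its sign varied, from −0.59 with a correction (offset) for the GC content and length of exons to 0.38 with a minimum mean of 50 counts. None of these values of Ap3s1 passed the threshold.

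The partners of Clta had values below 0 as well. Cltb was at 4.51 and 6.48 CPM in WT AGO2-IP but 3.99 and 2.43 in miR-379KO, on 19 to 56 counts, and the genotypes did not overlap (log2 fold change −0.75 ± 0.32, edgeR adjusted p-value 0.073). It passed without a filter on low counts (−0.96, adjusted p-value 0.0171), without WT A (−1.07, 0.0188) and without miR-379KO A (−1.24, 0.0303). Cltc was at 88.1 and 125 CPM in WT, against 84.7 and 72.3 in miR-379KO, also without overlap (−0.44 ± 0.27, adjusted p-value 0.218). The intervals of the 3 clathrin genes overlapped widely. A difference in change between Clta and its partners was tested only through the ratios given below.

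The partners of Ap3s1 had values on both sides of 0. The alternative small subunit Ap3s2 was at 4.61 and 4.51 CPM in WT AGO2-IP but 3.4 and 3.32 in miR-379KO, with close replicates and no overlap (log2 fold change −0.44 ± 0.30, edgeR adjusted p-value 0.276). The large subunit Ap3d1 was at 25.9 and 22.7 CPM in WT, against 18.4 and 16.5 in miR-379KO (−0.48 ± 0.22, adjusted p-value 0.104). The other large subunit, Ap3b1, was at 14.2 and 17.3 against 14.2 and 13.9 CPM (−0.16 ± 0.22). The medium subunit Ap3m1 was at 7.16 and 7.86 CPM in WT, against 10.6 and 7.79 in miR-379KO (0.29 ± 0.25). None of the 5 AP-3 genes passed the adjusted threshold.

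Members that passed in AGO2-IP were Ap2m1 and Ap1s3, neither of which the study named as a candidate. Ap2m1, the subunit of AP-2 that reads sorting signals in cargo, was at 31.8 and 35.7 CPM in WT, against 24.1 and 19.7 in miR-379KO. Both miR-379KO values were below both WT values, and the gene fell by 0.62 ± 0.23 on the log2 scale (edgeR adjusted p-value 0.0417). It was lower under each of 13 alternatives, from −0.85 to −0.25, but passed under only 4 of them (adjusted p-values 0.0205 to 0.443), and did not pass with DESeq2 (0.133), with the replicate block (0.073), without WT B (0.177) or without miR-379KO B (0.311). Ap1s3 was at 46.2 and 29.4 CPM in WT, against 99.1 and 122 in miR-379KO, on 254 to 951 counts. It was 2.92-fold higher in miR-379KO (log2 1.54 ± 0.28, adjusted p-value 5.66e-04), without overlap, and passed under 11 of 13 alternatives (0.59 to 1.92, adjusted p-values 3.27e-05 to 0.146). The exceptions were the offset for GC and length (log2 0.59, adjusted p-value 0.13) and the same offset with the replicate block (0.64, 0.146).

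**Figure D2:**
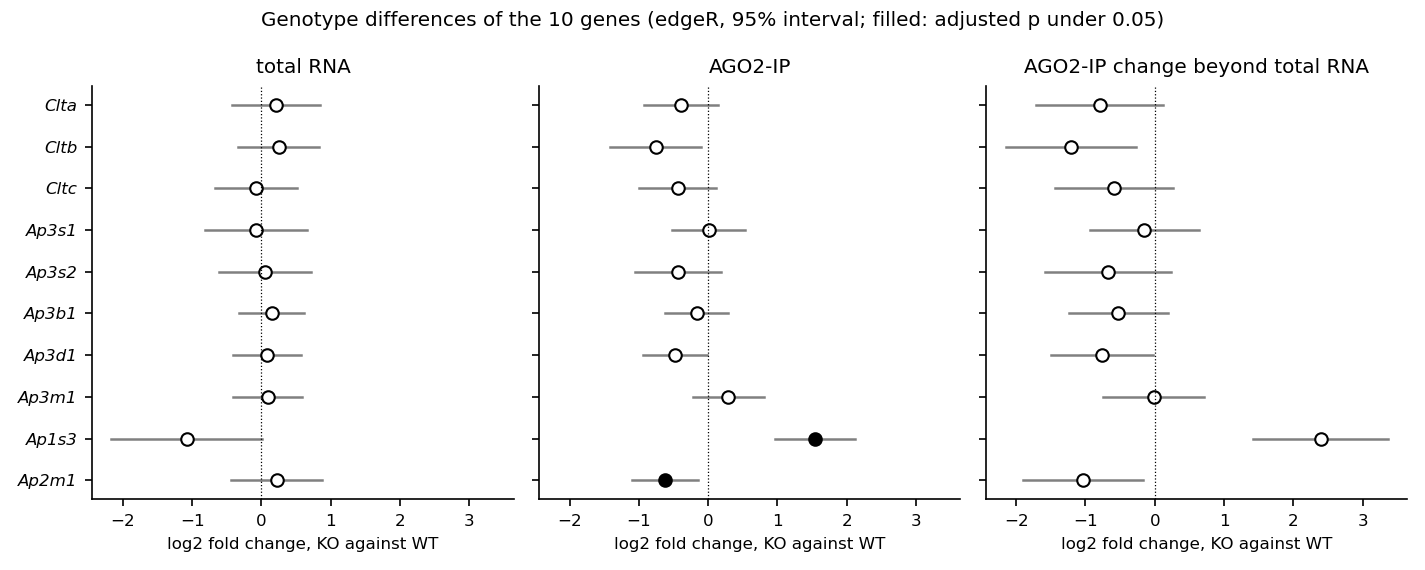
Log2 fold change of miR-379KO against WT for each gene in total RNA (left), in AGO2-IP (middle) and for the AGO2-IP change less the total RNA change (right), with 95% intervals from edgeR and filled points at an adjusted p-value under 0.05. Filled points are Ap1s3 (1.54) and Ap2m1 (−0.62) in AGO2-IP, while Clta (−0.39) and Ap3s1 (0.01) have intervals that include 0.

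These 2 calls among 10 members, 1 higher and 1 lower, are to be read against a background in which 30.9% of 13505 genes were called in AGO2-IP, 21.4% higher and 9.52% lower. The members' median log2 fold change was −0.42, against −0.01 for all genes tested. CPM ranges lay lower without overlap for 6 members (32.2% of all genes) and higher without overlap for 1 (36.1%). By the cutoff of the study's methods Cltb, Ap2m1 and Ap1s3 passed, against 39.4% of genes.

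The genotype difference in AGO2-IP moved with the level of a gene in total RNA. Among 3651 genes with over 1000 mean counts in total RNA, 26.4% were called lower and 7 genes higher, with a median log2 fold change of −0.45. Of the members 8 were in this range, with a median of −0.42, 6 of them below 0 and 1 called lower. Ranked among these abundant genes, 57% had a lower change than Clta, 51.4% a lower one than Cltc, 17.2% a lower one than Cltb and 29.4% a lower one than Ap2m1. Ap3s1 and Ap3m1 lay higher, with 90.9% and 98.3% of abundant genes below them. Ap1s3 belonged to the 1352 genes tested with 10 to 100 mean counts. Of these, 41.9% were called higher, at a median log2 fold change of 1.01, and 77.1% were below Ap1s3. Genes this low entered the test through their AGO2-IP counts, so this share is not an unselected background.

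**Figure D3:**
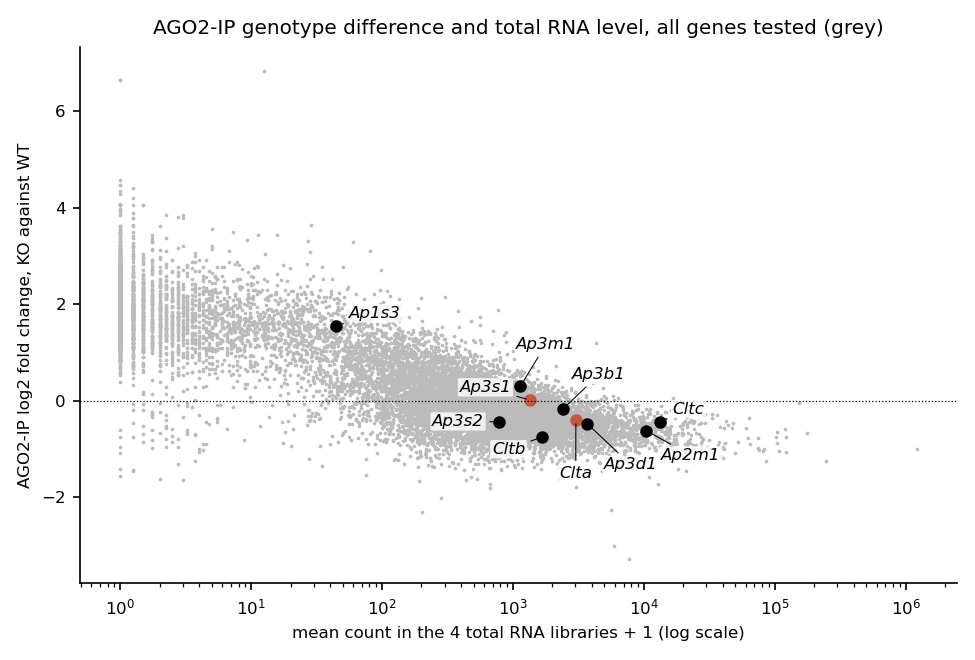
AGO2-IP log2 fold change of miR-379KO against WT (vertical) by the mean count in the 4 total RNA libraries plus 1 (horizontal, log axis) for 13505 genes in grey, with Clta and Ap3s1 in red and the other members in black. The members lie within the cloud of genes of their level: Clta at −0.39 is near the median of −0.45 of genes over 1000 counts, and Ap1s3 lies among the low genes that are higher in miR-379KO.

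Base composition moved with the same values. Over the 10 members the AGO2-IP log2 fold change and the GC content of the exons had a Spearman correlation of −0.76, and over 3650 genes with over 1000 mean counts it was −0.53, both given as a description across genes of the same libraries. Per RefSeq annotation on GRCm38, the members with the lowest GC content were Ap1s3 (39.5%), Ap3s1 (41.0%) and Ap3m1 (42.1%), which were also those with a log2 fold change above 0. Clta (54.1%) and Ap3d1 (55.4%) had the highest. With the offset for GC and length the order of the candidates turned, with Clta at 0.05 and Ap3s1 at −0.59 (edgeR adjusted p-values 0.919 and 0.0875). Under that offset Cltc passed, at −0.78 (0.0417).

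Whether AGO2-IP changed beyond total RNA was tested as the interaction of assay and genotype in all 8 libraries, which scales both assays together. The difference was −0.79 ± 0.43 for Clta (95% interval −1.71 to 0.13, edgeR adjusted p-value 0.38) and −0.15 ± 0.37 for Ap3s1 (−0.94 to 0.64, 0.953). For the partners of Clta it was −1.21 ± 0.45 for Cltb and −0.58 ± 0.40 for Cltc. For those of Ap3s1 it was −0.68 for Ap3s2, −0.52 for Ap3b1, −0.76 for Ap3d1 and −0.01 for Ap3m1. Ap2m1 had −1.04 ± 0.41, and Ap1s3, which was lower in total RNA and higher in AGO2-IP, had the largest value at 2.39 ± 0.46 (unadjusted edgeR p-value 7e-05, adjusted p-value 0.211). In all, 9 of 10 values were below 0, with a median of −0.63 against 0.01 for all genes and −0.68 for genes with over 1000 mean counts.

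No member passed the adjusted threshold for the interaction in edgeR, and neither did any other gene (0% of 17429). At an unadjusted p-value under 0.05 were 4 members, Cltb, Ap3d1 and Ap2m1 lower and Ap1s3 higher, and the same 4 met the study's cutoff, against 15.7% of genes. DESeq2 called Ap1s3 (adjusted p-value 6.9e-07), as did edgeR with the replicate block (0.0329). DESeq2 gave no adjusted p-value for 6 members, Clta and Ap3s1 among them. The result depended on the WT total RNA libraries. Without WT total RNA B the difference was −1.28 for Clta, −1.59 for Cltb, −1.20 for Ap3s2, −1.43 for Ap2m1 and 2.09 for Ap1s3. In the same order, the values without WT total RNA A were −0.45, −0.93, −0.32, −0.77 and 2.60.

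Ratios of alternative subunits within a library were compared because they do not depend on the scaling between libraries. They were not corrected for the GC content of the genes. Clta and Cltb compete for the same place on the heavy chain. Per kilobase, Clta made up 68.7% and 71.2% of light chain counts in WT total RNA, against 67.2% and 72% in miR-379KO. In AGO2-IP its share was 72.8% and 67.2% in WT, against 75.1% and 74.2% in miR-379KO. Clta was thus higher relative to Cltb in both miR-379KO libraries. Both genes had AGO2-IP log2 fold changes below 0, −0.39 for Clta and −0.75 for Cltb, the latter on 19 to 56 counts. The log2 ratio of Clta to Cltb differed between genotypes by −0.02 in total RNA (exact permutation test, two-sided p = 1, n = 2 against 2) and by 0.33 in AGO2-IP (exact p = 0.333). With 2 libraries against 2, 0.333 is the smallest p-value the test allows.

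Ap3s1 and Ap3s2 are alternative small subunits of AP-3. Ap3s1 made up 91.8% and 80.2% of their counts per kilobase in WT total RNA, a wide spread, and 86.3% and 86.2% in miR-379KO. In AGO2-IP its share was 85.8% and 83.7% in WT, against 88.7% and 88% in miR-379KO, again higher in both miR-379KO libraries. The log2 ratio differed by −0.11 in total RNA (exact p = 1, n = 2 against 2) and by 0.45 in AGO2-IP (exact p = 0.333). Against the other AP-3 subunits in AGO2-IP, the log2 ratio of Ap3s1 was higher in miR-379KO by 0.49 with Ap3d1, where the genotypes did not overlap, and by 0.18 with Ap3b1, and it was lower by a difference of −0.25 with Ap3m1. The ratios with Ap3b1 and with Ap3m1 overlapped between genotypes. The log2 ratio of Clta to Cltc differed by −0.02 in AGO2-IP. Exact p-values of these 4 ratios were 0.333 to 1, and 12 comparisons of ratios were made in all, none of which could pass the threshold. With the offset for GC and length, AGO2-IP log2 fold changes were −0.59 for Ap3s1, −0.27 for Ap3s2 and −0.02 for Ap3d1. Ap3s1 was then lower than both, the reverse of the uncorrected order. Clta at 0.05 stayed above Cltb at −0.48.

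**Figure D4:**
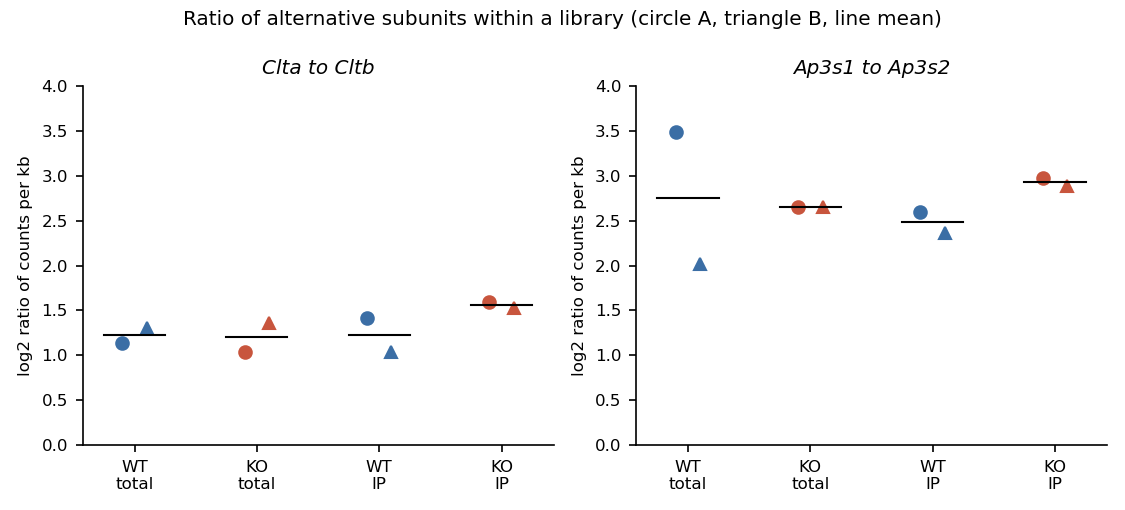
Log2 ratio of counts per kilobase of Clta to Cltb (left) and Ap3s1 to Ap3s2 (right) in each library, with a circle for replicate A, a triangle for replicate B and a line at the mean. In AGO2-IP both miR-379KO libraries lie above both WT libraries for each pair, and in total RNA the genotypes overlap, with WT A and B far apart for Ap3s1 to Ap3s2. The ratios are not corrected for GC content.

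Recovery with AGO2 was described by setting AGO2-IP beside total RNA of the same genotype, where assay and library protocol change together and cannot be told apart. In WT MMC the light chains Clta (log2 −1.42 ± 0.31) and Cltb (−1.39 ± 0.30) and the adaptor subunits Ap2m1 (−1.45 ± 0.29) and Ap3s1 (−0.92 ± 0.26) were lower in AGO2-IP than in total RNA (edgeR adjusted p-values 0.0011, 0.00122, 6.59e-04 and 0.00762). The heavy chain Cltc was at −0.28 ± 0.29 and did not pass, and the remaining 4 AP-3 subunits were at −0.69 to −0.47 and did not pass either. These 4, Ap3s2, Ap3b1, Ap3d1 and Ap3m1, moved when 1 library was left out. They were at −0.92 to −0.70 without either miR-379KO AGO2-IP library. Without WT total RNA A they were at −1.10 to −0.51, and without WT AGO2-IP B at −0.97 to −0.71. Without WT total RNA B they were at −0.50 to −0.22. With all libraries, Ap3s2 passed under 5 alternatives (edgeR adjusted p-values 0.0321 to 0.0497), Ap3b1 and Ap3d1 with DESeq2 (0.0356 and 0.0127) and Ap3m1 with the offset (−1.16, 5.57e-04). Called lower were thus 4 of 10 members against 12.8% of 17429 genes, and against 1397 of the 3653 genes with over 1000 mean counts, a range that holds 8 of the members. The median of genes with over 1000 mean counts was −0.45, above Clta, Cltb, Ap2m1 and Ap3s1 and below Cltc.

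In miR-379KO MMC 8 members were called lower in AGO2-IP, against 25.9% of genes and 2542 of the 3653 genes with over 1000 counts, whose median was −1.09. Cltb (−2.60 ± 0.33), Ap2m1 (−2.49 ± 0.31) and Clta (−2.21 ± 0.32) had the lowest values, and Ap3s1 was at −1.07 ± 0.27. With the offset for GC and length the order changed in both genotypes, and Ap3s1 had the lowest value, at −2.02 in WT and −2.88 in miR-379KO (edgeR adjusted p-values 9.2e-06 and 1.4e-07), while Clta was at −0.80 and −1.30 and Cltb at −1.10 and −2.17. Ap3m1 at −0.48 ± 0.24 was the only member below 0 that did not pass (edgeR adjusted p-value 0.0866), and it passed without either WT total RNA library (0.0258 without A and 0.0273 without B), with the offset (−1.68, 8.64e-06), without a filter (0.0389) and with the genotype-letter block (0.0483). Cltc, at −0.86 ± 0.29 (0.0135), did not pass without miR-379KO total RNA A (0.058) or miR-379KO AGO2-IP B (0.115), nor with TMM factors of genes expressed in total RNA (0.0734). The offset ended the calls of Ap3s2 (−0.41, 0.267) and Ap3d1 (0.10, 0.677), and a minimum mean of 50 counts those of Cltc (0.312), Ap3s1 (0.119) and Ap3b1 (0.0888).

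Ap1s3 was the exception in both genotypes. Its log2 difference was 6.04 ± 0.36 in WT and 8.44 ± 0.40 in miR-379KO (edgeR adjusted p-values 2.09e-09 and 9.19e-11), where 38.7% and 43.9% of genes were called higher. The gene had 20 to 64 counts in total RNA libraries and 254 to 951 in AGO2-IP libraries. Among 2391 genes with 10 to 100 mean counts in total RNA, 99.3% in WT and 99.5% in miR-379KO had a lower difference. In miR-379KO AGO2-IP it was the highest member per kilobase, at 34.5 and 42.2 CPM per kb, against 13 and 11.1 for Cltc. In WT AGO2-IP it was at 16.1 and 10.2 CPM per kb, which overlapped Cltc (13.5 and 19.1) and Ap2m1 (10.8 and 12.2). Its 3′-UTR of 2291 bases held 1 match to TCTACC and 1 to GTCTAC, which are in 37% and 30.4% of 3′-UTRs of like length. They are printed with the match in capitals because Ap1s3 is the only member with both.
Ap1s3, chr1:79608817-79608838, minus strand: tttgatctTCTACCtgtagact
Ap1s3, chr1:79609146-79609166, minus strand: gtgtacaGTCTACttgaagat

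**Figure D5:**
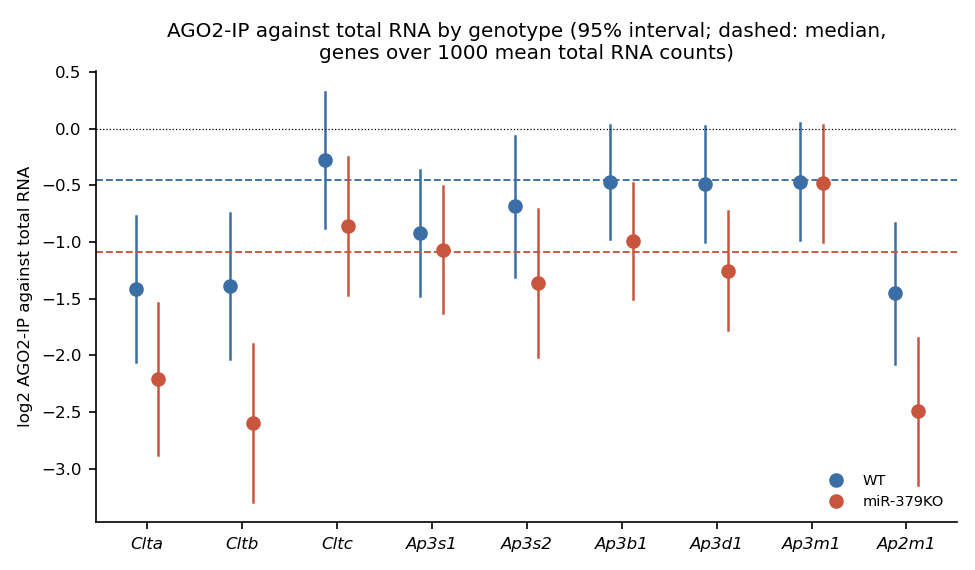
Log2 difference of AGO2-IP and total RNA in WT (blue) and miR-379KO (red) for the 9 members other than Ap1s3, with 95% intervals from edgeR; dashed lines mark the median of genes with over 1000 mean counts in total RNA (−0.45 in WT, −1.09 in miR-379KO). The light chains and Ap2m1 lie below both lines, and Ap3m1 is at −0.47 and −0.48.

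Other genes of the same machinery were counted to place the members. Of 21 further adaptor subunits, 20 were tested in AGO2-IP. Ap2a1, a large subunit of AP-2, fell by 0.89 ± 0.23 (edgeR adjusted p-value 0.00645), from 20.2 and 21.9 CPM in WT to 13.4 and 9.2 in miR-379KO. Ap4e1, a large subunit of AP-4, rose by 0.80 ± 0.25 (0.0177), from 5.29 and 6.94 to 10.6 and 10.6 CPM. The other 18 did not pass, and the median log2 fold change of the list was −0.28. These counts, and those of the next lists, stand beside 21.4% of all genes called higher and 9.52% called lower.

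Of 37 clathrin coat factors, the genes of accessory proteins that bend, cut or uncoat the vesicle, 34 were tested in AGO2-IP, with 3 higher, 4 lower and a median of −0.30. The endocytic adaptor genes Necap2 and Epn1 fell by 0.84 ± 0.29 and 0.82 ± 0.25 (edgeR adjusted p-values 0.0324 and 0.0164). Snap91, which encodes a clathrin assembly protein best known from neurons, was higher by 1.15 ± 0.40 (0.0348), although its replicates in WT were far apart at 3.14 and 0.925 CPM, against 4.58 and 4.73 in miR-379KO. Of 20 partners of AP-3, mainly genes of the BLOC and HOPS complexes that act in transport to lysosomes, 1 was called, Vps18, a core subunit of HOPS that fell by 0.85 ± 0.29 (0.0282). The median of these 20 genes was −0.24.

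Of 10 cargo receptors carried in clathrin or AP-3 vesicles, 5 were called lower in AGO2-IP and 0 higher, with a median of −0.61, and all 10 values were below 0. Over all genes 9.52% were called lower, and among genes with over 1000 mean counts in total RNA 26.4% were, at a median of −0.45. The largest were those of the endocytic receptor Lrp1, at 1100 and 988 CPM in WT, against 561 and 403 in miR-379KO (log2 −1.11 ± 0.33, edgeR adjusted p-value 0.0136), and of the growth factor receptor Egfr, at 144 and 147 against 78.8 and 63.5 CPM (−1.03 ± 0.27, 0.0064). In total RNA 0 genes of these 4 lists passed, with medians of 0.09 for adaptor subunits, 0.0007 for coat factors, 0.045 for AP-3 partners and −0.08 for cargo receptors, and the interaction called 0 as well, with medians of −0.51, −0.46, −0.50 and −0.77.

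Against total RNA, 38.7% of all genes were called higher and 12.8% lower in WT AGO2-IP, and 43.9% higher and 25.9% lower in that of miR-379KO. Adaptor subunits went both ways in WT, with 6 of 21 called in each direction, and in miR-379KO 3 were higher and 10 lower. The small subunits Ap1s1 of AP-1 (−1.45 in WT, −2.55 in miR-379KO) and Ap2s1 of AP-2 (−1.26, −2.37) had values like those of the light chains. Of 37 coat factors, WT had 9 higher and 5 lower while miR-379KO had 8 higher and 15 lower, led on the low side by the GTPase gene Arf1 (−1.38, −2.36) and the uncoating chaperone gene Hspa8 (−1.21, −2.15). Among the 20 AP-3 partners 8 were lower and 0 higher in WT, whereas miR-379KO had 14 lower and 1 higher. Of cargo receptors, WT had 3 of 10 higher and 0 lower, among them Lrp1 (2.38) and Igf2r (1.45), the receptor that brings enzymes to lysosomes, while miR-379KO had 2 higher and 6 lower.

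Genes with the pattern most like that of the candidates over the 8 libraries were ranked by Pearson's correlation of log2 CPM, among 2472 genes with at least 100 mean counts in each assay. For Clta they were Ftl1 (0.996), Jund (0.996) and Akr1a1 (0.995). For Ap3s1 they were Ppp1cb (0.979), Sh3bgrl (0.971) and Sh3glb1 (0.966). The genes compared share the same libraries with their depth and base composition, and the assays form separate groups of points, so the values are a description.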

How the data were processed

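The deposited values are raw counts of reads for each gene, not normalized by the authors, and each sample has its own table. The study's methods and the submitters' processing notes say that reads were aligned to mm10 with TopHat and Bowtie2 and counted on UCSC RefSeq genes with HTSeq 0.6.0, reverse-stranded. A stranded poly(A) kit was used for total RNA. The study's methods give adapter ligation without size selection for its libraries of ligated hybrid RNA. For AGO2-IP RNA without the ligation step they name small RNA sequencing. The start of Ap3s1 and the end of Ap3m1 overlap antisense genes, which strand-specific counting is meant to keep apart. Whether it did so in the AGO2-IP libraries was not tested. Reads outside genes were not used as genes. They were 6.41% to 8.81% of uniquely placed reads in total RNA. In AGO2-IP they were 46.6% and 49.7% in WT, against 73.4% and 76.4% in miR-379KO. The part of this genotype difference in the AGO2-IP results was not tested.

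Groups came from the sample labels. edgeR 4.0.16 (R 4.3.3) was fitted to all genes with TMM factors, filterByExpr (minimum count 10), the robust option and the quasi-likelihood test, with Benjamini-Hochberg adjustment over all genes tested and a threshold of 0.05. The script was tested on simulated data. Genotypes were compared on the 4 libraries of each assay, and the other comparisons on all 8. CPM use TMM-scaled totals within an assay. Ratios had 0.5 added to each count. Exon length, GC content and 3′-UTRs came from RefSeq on GRCm38.p6 (23602 entries matched by symbol, 721 by synonym, 316 unmatched), and duplexes from RNAduplex 2.7.2. Intervals cover the spread of 2 libraries a group.

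The members and lists were chosen with earlier results of these data known. All 10 members are named, and from each list up to 2 genes per direction and comparison with the largest change among those called at 20 or more mean counts, of which the text gives a part. The 3 genes most like each candidate are named too. One marker gene is not reported here. Alternatives were DESeq2 1.42.0, RLE factors, TMM factors from genes with at least 10 mean counts in total RNA, no filter, a minimum mean of 50 counts, an offset for GC content and length (lowess, span 0.3), blocks by replicate letter, all 8 libraries in one fit, the study's cutoff and omission of each library. A crossed block was added after the data were seen.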

Additional observations from a re-analysis of the deposited data

How the results depend on the processing

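In total RNA 0 members were called under each alternative. In AGO2-IP the 2 calls became 1 with the replicate block, TMM factors of genes expressed in total RNA, the offset for GC content and length, a minimum mean of 50 counts, DESeq2 or all 8 libraries in one fit, 0 with the block and the offset together, 3 without a filter or by the study's cutoff, and 1 to 4 with a library left out. The interaction, with 0 calls, had 4 by the study's cutoff, 1 with the replicate block and 2 with a block for each genotype and letter (Ap1s3 and Cltb). DESeq2 called 1 and gave no adjusted p-value for 6 members, Clta and Ap3s1 among them. In WT AGO2-IP against total RNA the 5 calls became 5 to 9 with a library left out, 9 without either miR-379KO AGO2-IP library and 8 without WT total RNA A or WT AGO2-IP B, and 5 to 7 under the other alternatives. In miR-379KO the 9 calls became 6 with a minimum mean of 50 counts and 8 to 10 otherwise. The labels do not say that samples with the same letter belong together, so the letters were not taken to pair them. Same-letter deviations correlated across genes at −0.21 in total RNA and −0.03 in AGO2-IP, and crossed pairing in total RNA called 0 members and 1 gene. Across assays the correlation was 0.22 for WT and 0.18 for miR-379KO. Between genotypes it was 0.17 for miR-379KO total RNA with WT AGO2-IP and −0.03 for WT total RNA with miR-379KO AGO2-IP.

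Of all genes, AGO2-IP calls fell from 4173 to 274 with a minimum mean of 50 counts, 802 with DESeq2, 686 with all 8 libraries in one fit, 2351 without WT B and 918 without miR-379KO B. Interaction calls rose from 0 to 8 with the replicate block, 38 with the block and offset, 114 with DESeq2, 1108 with the genotype-letter block, 1547 without WT total RNA B and 28 without WT total RNA A. WT AGO2-IP against total RNA fell from 8987 to 2881 and miR-379KO from 12159 to 4716 with a minimum mean of 50 counts, and the former to 5655 without WT AGO2-IP A. The share of calls that were higher in AGO2-IP moved with scaling, from 2887 higher and 1286 lower to 3352 and 560 with TMM factors of genes expressed in total RNA, which shifted the median of all genes to 0.16, and to 2784 and 2366 without a filter (median 0.36). In the interaction RLE and those TMM factors shifted it to 0.28 and 0.34.

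Values whose sign turned are given next, and none of those with an adjusted p-value passed the threshold. In total RNA they were Cltc with the offset (0.10; with the block 0.11) and Ap3s1 with all 8 libraries (0.014), and with a library left out Clta ranged from −0.059 to 0.55, Ap3s1 from −0.43 to 0.39, Ap3s2 from −0.24 to 0.42 and Ap3m1 from −0.012 to 0.20. In AGO2-IP they were Ap3s1 with RLE factors (−0.022), the offset (−0.59; with the block −0.58), no filter (−0.20), DESeq2 (−0.021) and all 8 libraries (−0.14), Ap3b1 with TMM factors of genes expressed in total RNA (0.011) and a minimum mean of 50 counts (0.21), Clta with the offset (0.047; with the block 0.028) and Ap3m1 with the offset (−0.26; with the block −0.27). With a library left out, Ap3s1 ranged from −0.16 to 0.091 and Ap3m1 from −0.017 to 0.48. In the interaction they were Ap3s1 and Ap3m1 with RLE factors (0.13 and 0.25), TMM factors of genes expressed in total RNA (0.19 and 0.31), a minimum mean of 50 counts (0.27 and 0.39) and DESeq2 (0.13 and 0.25), and with a library left out they ranged from −0.50 to 0.21 and from −0.079 to 0.44. Against total RNA they were Ap3d1 with the offset (0.38 in WT, 0.10 in miR-379KO; with the block 0.39 and 0.11), Ap3s2 in WT with the block and offset (0.060) and Ap3m1 in miR-379KO with a minimum mean of 50 counts (0.038). Cltb and Ap3s2 in AGO2-IP and Ap1s3 in total RNA could not be fitted with a minimum mean of 50 counts, which removed them. The causes were not tested. AGO2-IP counts of 19 to 98 for Clta, Cltb, Ap3s1, Ap3s2 and Ap3m1 limit their precision, and differences within the intervals given were not detectable at this depth.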
